A study of Mus musculus with 16 samples.

Results

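The enzymes described here make proline, break it down or free it from peptides. They are 8 genes, Aldh18a1, Pycr1, Pycrl (also written Pycr3), Oat, Prodh, Prodh2, Aldh4a1 and Pepd, chosen by symbol for their place in the pathway out of 22322 genes in each deposited table, and all 8 were found in both tables. Expression was measured by sequencing of poly(A)-selected RNA from 16 mouse libraries. All mice were DIO (diet-induced obese) and received intraperitoneal injections on a schedule of every 2 days, and tissue was taken at 8 weeks. The control mice received vehicle (libraries labelled HFD) and the treated mice received halofuginone at 100 μg/kg (libraries labelled H100). That HFD marks the vehicle mice and H100 the treated mice was read from the series design and the dose, since the titles carry only these codes. There were 5 libraries per group in liver and 3 per group in white adipose tissue. The labels used here give no strain, sex, age or fat depot, and leave unsaid whether a liver and a fat library that share a number share an animal. They also do not say that replicates are separate animals, so p-values measure the spread between these libraries.

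Proline is built in mitochondria from glutamate. Aldh18a1, which encodes pyrroline-5-carboxylate synthase, makes the intermediate, and reductases, among them those encoded by Pycr1 and Pycrl, turn it into proline. Oat, ornithine aminotransferase, links the same intermediate to ornithine and the urea cycle, and in liver it is known as an enzyme of the hepatocytes around the central vein. Breakdown starts with Prodh, proline dehydrogenase, or with Prodh2, which oxidises hydroxyproline from collagen, and Aldh4a1 oxidises the products of both. Pepd encodes prolidase, which releases proline from dipeptides. Halofuginone inhibits the prolyl-tRNA synthetase activity of the protein encoded by Eprs, the step that loads proline for protein synthesis. Aldh18a1 and Pycr1 are known targets of the transcription factor ATF4, which acts when amino acid supply to tRNA falls.

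In liver the synthase of the glutamate route, Aldh18a1, was higher under halofuginone, and the ornithine enzyme Oat and 2 of the 3 breakdown genes were lower. Aldh18a1 rose 3.43-fold, Oat fell to a level 2.89-fold lower, Aldh4a1 to one 2.03-fold lower and Prodh2 to one 1.55-fold lower. Of the 7 members that passed the filter on low counts, 1 was higher, 3 were lower and 3 were not called at an adjusted p under 0.05 (edgeR quasi-likelihood test, Benjamini-Hochberg over 12311 genes). Over all genes tested in liver, 23.2% were called, 12.7% higher and 10.5% lower. The median log2 fold change of the 7 members was -0.27, against 0.02 over all genes. Pycr1, the eighth member, lay below the filter and is given by its counts. In fat no member passed the adjusted threshold in edgeR, where DESeq2 called Aldh18a1 and Pepd. Oat differed from its liver change in a test that took all libraries as independent. That call was lost when liver and fat libraries of the same treatment and number shared a block.

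The liver libraries summed to between 20309956 and 31980683 counts and the fat libraries to between 17070614 and 21387799. The first principal component of liver carried 56.2% of the variance, and halofuginone liver 1 lay beside the vehicle livers on it, at -23.3 against -36.0 to -28.3 in vehicle and 32.4 to 58.0 in the other halofuginone livers. The liver values of the members and of the other named pathway genes are given with and without that library. Asns, an ATF4 target, was higher in halofuginone liver 1 (6.71 CPM) than in any vehicle liver (0.317 to 1.35 CPM), where CPM is the count relative to the normalised library size. Trib3, a second ATF4 target, was at 5.96 CPM in halofuginone liver 1, against 2.75 to 5.73 CPM in vehicle and 210.5 to 357 CPM in the other halofuginone livers. Vehicle fat 2 stood apart in fat, at -65.7 on a component that carried 39.4%. The labelled tissues held their defining markers, with 5 hepatocyte markers summing to 40256 to 125708 CPM in liver and 2.33 to 7.05 CPM in fat. Of 7 adipocyte markers 4 passed the filter in liver, and Lep was at 0 counts in every liver library. Cfd (log2 fold change -8.92, adjusted p = 9.41e-05) and Fabp4 (-1.63, adjusted p = 0.00374) were lower under halofuginone (edgeR), as were 10.5% of all genes. Cfd was at 8.02 to 30.5 CPM in vehicle livers and at 0 to 0.0746 CPM in halofuginone livers, halofuginone liver 1 included. Cidec (log2 fold change -1.39, adjusted p = 0.143) and Pck1 (0.25, adjusted p = 0.398) were not called (edgeR).

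The promoters of 3 members are shown because these genes had the largest changes in liver, Aldh18a1 and Pycr1 upward and Oat downward. Each is the stretch of 250 bases before the RefSeq start of the gene on GRCm38.p6, written 5′ to 3′ on the strand of the gene. RefSeq promoters were matched for 7 of the 8 members. The motif searched was TGATGNAA on both strands, the core of the composite element bound by ATF4 with a C/EBP partner, and capitals mark it. The windows are chr11:120643749-120643998 for Pycr1, chr19:40588464-40588713 for Aldh18a1 and chr7:132576399-132576648 for Oat, all 3 on the minus strand.
Pycr1: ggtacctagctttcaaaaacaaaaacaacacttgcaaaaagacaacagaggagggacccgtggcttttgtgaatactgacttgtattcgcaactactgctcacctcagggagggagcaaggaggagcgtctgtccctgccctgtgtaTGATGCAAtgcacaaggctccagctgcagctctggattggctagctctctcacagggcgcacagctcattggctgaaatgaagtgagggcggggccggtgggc
Aldh18a1: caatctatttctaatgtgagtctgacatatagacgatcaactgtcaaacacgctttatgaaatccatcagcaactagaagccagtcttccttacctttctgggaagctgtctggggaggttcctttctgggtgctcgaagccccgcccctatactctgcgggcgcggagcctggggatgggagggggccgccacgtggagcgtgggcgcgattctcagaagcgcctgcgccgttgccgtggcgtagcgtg
Oat: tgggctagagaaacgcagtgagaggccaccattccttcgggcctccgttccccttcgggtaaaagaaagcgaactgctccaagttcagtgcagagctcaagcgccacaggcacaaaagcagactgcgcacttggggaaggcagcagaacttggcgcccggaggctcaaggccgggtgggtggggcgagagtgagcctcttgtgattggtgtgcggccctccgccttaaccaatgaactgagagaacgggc

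The Pycr1 window holds 1 match, TGATGCAA, whose first base lies 103 bases before the start. It was the only match among the 7 members' windows, and 3.45% of 32851 RefSeq windows of the same length hold the motif. The windows of Aldh18a1, Oat, Prodh, Prodh2, Aldh4a1 and Pepd do not hold these letters. A match of letters is a description and no measurement of binding was made in these libraries.

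In vehicle tissue the 8 genes stood in a different order in liver and in fat when levels were compared per gene length, as FPKM (fragments per length of transcript and size of library). Oat led in both, at 600 ± 82.7 FPKM in liver (SD, n = 5), rank 114 of 22322 genes, and at 84.9 ± 8.73 FPKM in fat (SD, n = 3). The liver order below Oat was Aldh4a1 at 90.4, Prodh2 at 63.5, Prodh at 45.4, Pycrl at 15.8, Pepd at 15.0, Aldh18a1 at 0.366 and Pycr1 at 0.072 FPKM. The ranges of Prodh2 (55.8 to 69.1) and Prodh (34.7 to 56.7) overlapped, as did those of Pycrl (14.5 to 17.1) and Pepd (14.0 to 17.5). In vehicle liver the breakdown enzymes were far above the synthase and Pycr1, and the Oat level was 1229 to 2371 times the Aldh18a1 level within a library.

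In vehicle fat Pepd followed Oat at 38.2 ± 2.59 FPKM, then came Aldh4a1 at 11.7, Pycrl at 8.99, Prodh at 8.62, Aldh18a1 at 5.49 and Pycr1 at 1.80 FPKM. The ranges of Aldh4a1 (8.27 to 14.9), Pycrl (7.48 to 10.2) and Prodh (4.09 to 13.9) overlapped, and that of Aldh18a1 (4.79 to 6.43) overlapped with Prodh alone. Prodh2 had 0 counts in all 6 fat libraries, which allows up to 0.139 to 0.18 CPM for a limit of 3 counts and covers counting error only. All 8 genes had vehicle levels that did not overlap between the tissues, with Aldh18a1, Pycr1 and Pepd higher in fat and the other 5 higher in liver. Across 18347 genes with any signal 67.9% did not overlap, 58.4% higher in fat and 9.49% lower. The Oat level in vehicle fat was 12.0 to 18.0 times that of Aldh18a1.

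**Figure D1:**
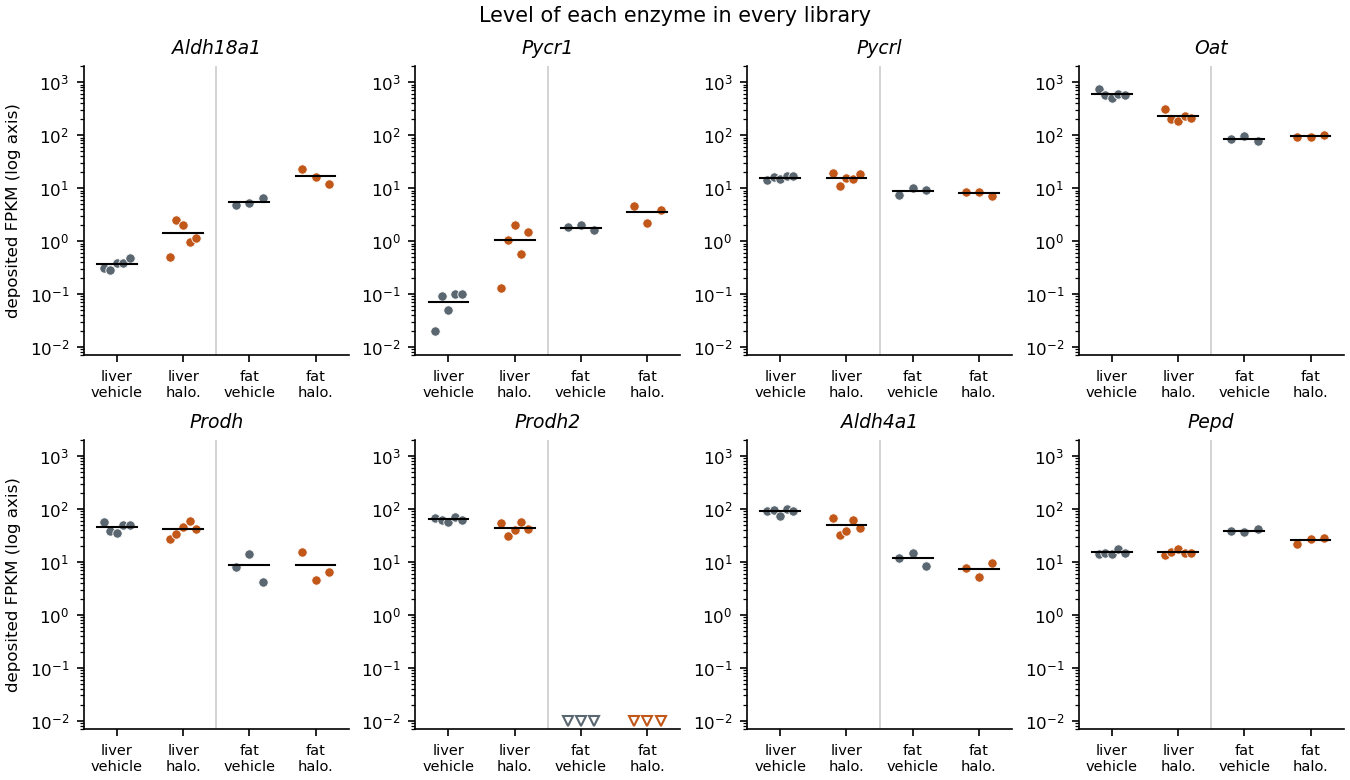
Deposited FPKM of the 8 genes on a log axis, 1 panel per gene, with a point per library (grey vehicle, orange halofuginone), a bar at the group mean, and liver left of fat. Open triangles at the base of the axis are libraries listed at 0, which are the 6 fat libraries of Prodh2, and Oat has the highest points in both tissues.

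Aldh18a1 (ENSMUSG00000025007), the synthase, was scarce in vehicle liver, at 1.15, 1.10, 1.44, 1.34 and 1.74 CPM in livers 1 to 5. Under halofuginone it was at 1.79, 8.16, 6.05, 3.43 and 3.87 CPM. All 5 halofuginone livers were above all 5 vehicle livers, a separation that 11.7% of the genes tested in liver showed (5.13% higher, 6.55% lower), but halofuginone liver 1 was only just above the highest vehicle liver. Its 36 counts have an exact 95% Poisson interval of 1.25 to 2.48 CPM (counting error only), which spans vehicle levels. The rise was 1.78 on the log2 scale (SE 0.351, adjusted p = 0.00908, edgeR), and 1.95 without halofuginone liver 1 (SE 0.264, adjusted p = 0.000254). With limma on log2(FPKM + 1) it was 0.77 (adjusted p = 0.0197), a scale on which the pseudocount exceeds the vehicle level of the gene.

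In fat Aldh18a1 was at 17.1, 18.2 and 24.0 CPM in vehicle and at 79.8, 56.0 and 39.4 CPM under halofuginone. The 3 halofuginone libraries were all above the vehicle libraries. The log2 difference was 1.56 (SE 0.286, unadjusted p = 0.00101), but its adjusted p was 0.148 in edgeR. The difference between the fat and the liver effect was -0.24 (SE 0.5, adjusted p = 0.882, edgeR).

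Pycr1 (ENSMUSG00000025140), the mitochondrial reductase, had 1, 4, 2, 5 and 2 counts in vehicle livers 1 to 5, or 0.0396, 0.2, 0.0932, 0.187 and 0.0656 CPM. Under halofuginone it had 4, 49, 87, 30 and 52 counts, or 0.199, 1.83, 3.11, 1.16 and 1.94 CPM. Halofuginone liver 1 lay inside the vehicle range and the other 4 lay above it. Summed over libraries the ratio of levels was 15.4 (95% counting interval 8.98 to 28.6, from 222 and 14 counts), and the difference in mean CPM had an exact permutation p of 0.0159 (two-sided, 252 splits, smallest possible 0.00794). Without halofuginone liver 1, the library inside the vehicle range, the ratio was 17.9 (10.5 to 33.4). The exact permutation test then gave its smallest possible p over 126 splits, 0.00794. Leaving out the only overlapping library fixes that value, so it adds no evidence. With no filter on low counts, edgeR gave a log2 fold change of 3.82 (SE 0.642, adjusted p = 0.0047).

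In fat Pycr1 was at 3.24, 3.66 and 3.29 CPM in vehicle and at 8.10, 3.81 and 4.89 CPM under halofuginone. The halofuginone libraries were above the vehicle libraries, the middle one by little. The log2 difference of 0.72 (SE 0.348) did not pass the test (adjusted p = 0.425, edgeR). The fat effect minus the liver effect was -3.12 (SE 0.85, adjusted p = 0.0884, edgeR), and it passed without halofuginone liver 1, at -3.40 (SE 0.601, adjusted p = 0.00435), and in DESeq2 (adjusted p = 0.0175).

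Pycrl (ENSMUSG00000022571), the cytosolic reductase, stayed within overlapping ranges. Vehicle livers were at 20.5 to 23.6 CPM and halofuginone livers at 13.6 to 25.9 CPM, with a log2 difference of -0.15 (SE 0.155, adjusted p = 0.497, edgeR), and -0.28 without halofuginone liver 1 (adjusted p = 0.134). In fat the difference was -0.24 (SE 0.198, adjusted p = 0.654, edgeR).

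Within a library the level of Pycr1 per length was a small percentage of that of Pycrl in liver and a larger one in fat. In vehicle liver the FPKM of Pycr1 was 0.445% ± 0.2 of that of Pycrl (SD, n = 5), between 0.138 and 0.594% in single livers. Under halofuginone it was 7.10% ± 4.87, between 0.677% and 13.1%, and all 5 libraries were above the vehicle range in deposited FPKM. The lowest, halofuginone liver 1, rests on 4 counts of Pycr1, against 1 to 5 counts in vehicle livers. Counting error therefore does not set that library apart from vehicle. In fat it was 20.3% ± 3.49 in vehicle (SD, n = 3), between 17.4 and 24.2%, and 45.0% ± 16.8 under halofuginone, between 25.7 and 55.3%, again with no overlap. These ratios use the values given above for both genes and were not tested separately.

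Oat (ENSMUSG00000030934) was the most abundant of the 8 and had the largest fall in liver. Vehicle livers 1 to 5 were at 1666, 1349, 1189, 1291 and 1303 CPM, and halofuginone livers at 689, 396, 330.3, 505 and 432 CPM. All 5 halofuginone livers were below all vehicle livers, and halofuginone liver 1 was the highest of them. The log2 fold change was -1.53 (SE 0.2, adjusted p = 0.00268, edgeR), and -1.73 without halofuginone liver 1 (SE 0.161, adjusted p = 2.69e-05). In bulk tissue fewer cells of a type and less RNA per cell cannot be told apart.

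In fat Oat was at 184, 200.1 and 176 CPM in vehicle and at 190.1, 195 and 213 CPM under halofuginone, and the groups overlapped. The log2 difference was 0.09 (SE 0.141, adjusted p = 0.822, edgeR). With libraries taken as independent, the fat effect exceeded the liver effect by 1.61 on the log2 scale (SE 0.288, adjusted p = 0.0207, edgeR over 14853 genes). The excess was 1.78 without halofuginone liver 1 (adjusted p = 0.000505). With liver and fat libraries of the same treatment and number as a block, it was 1.71 and not called (adjusted p = 0.281, edgeR). Without the block, Oat was the only one of the 7 members tested to pass in this contrast. There 0.949% of all genes were called (0.417% higher, 0.532% lower), and the members' median was -0.11 against -0.04 over all genes. Within a library the Oat level was 78.9 to 637 times the Aldh18a1 level per length in halofuginone liver and 3.87 to 8.68 times in halofuginone fat, both below the vehicle ranges given above.

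**Figure D2:**
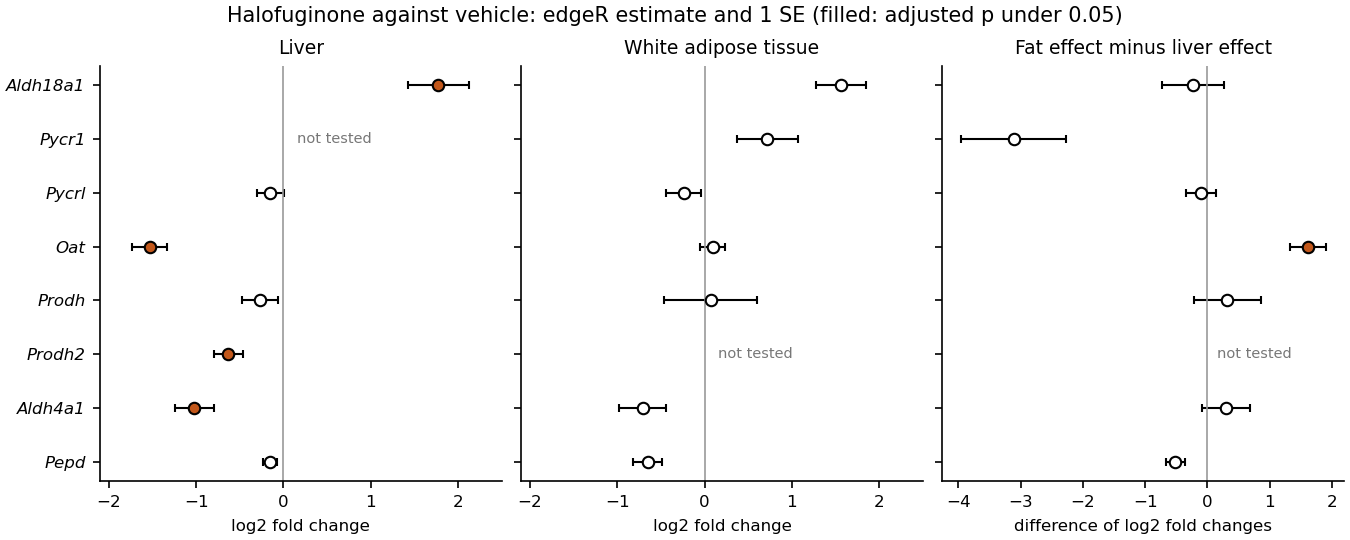
Log2 fold change of each gene under halofuginone in liver and in fat, and the fat effect minus the liver effect, with bars of 1 SE and filled points for an adjusted p under 0.05 (edgeR). Aldh18a1 is filled to the right in liver, Oat, Prodh2 and Aldh4a1 are filled to the left, and Oat alone is filled in the contrast.

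Of the genes of breakdown, Aldh4a1 (ENSMUSG00000028737), which oxidises the intermediate back to glutamate, was at 327, 349.5, 264, 343 and 327 CPM in vehicle livers 1 to 5. Halofuginone livers were at 225, 101, 109, 214 and 143 CPM, all below the vehicle livers. The log2 fold change was -1.02 (SE 0.225, adjusted p = 0.0127, edgeR), and -1.20 without halofuginone liver 1 (adjusted p = 0.00111). Aldh4a1 shares 1595 exonic bases with the readthrough gene Gm21969 in GENCODE M21, and that gene had 0 to 2 counts in a library. In fat Aldh4a1 was at 41.3, 49.5 and 29.7 CPM in vehicle and at 25.3, 17.7 and 30.8 CPM under halofuginone, with 1 halofuginone library above the lowest vehicle library. The log2 difference in fat was -0.71 (SE 0.27, unadjusted p = 0.0348), with an adjusted p of 0.334 in edgeR.

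Prodh2 (ENSMUSG00000036892), hydroxyproline dehydrogenase, was at 110.0, 103, 90.8, 109 and 99.9 CPM in vehicle livers 1 to 5. Halofuginone livers were at 84.3, 46.6, 51.2, 84.7 and 64.3 CPM, all below the vehicle livers. The log2 fold change was -0.63 (SE 0.168, adjusted p = 0.024, edgeR), and -0.75 without halofuginone liver 1 (adjusted p = 0.00353). The call was lost when vehicle liver 1, 2 or 4 or halofuginone liver 3 or 5 was left out, with adjusted p of 0.0505, 0.0516, 0.0518, 0.0638 and 0.0569 in that order (edgeR).

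Prodh (ENSMUSG00000003526), proline dehydrogenase, spread widely within groups. Vehicle livers were at 139, 96.5, 84.5, 113 and 114 CPM and halofuginone livers at 62.5, 72.3, 84.5, 139 and 95.2 CPM, and the groups overlapped. The log2 difference was -0.27 in liver (SE 0.207, adjusted p = 0.351), or -0.19 without halofuginone liver 1 (adjusted p = 0.47), and 0.07 in fat (SE 0.534, adjusted p = 0.971, both edgeR). Fat libraries ranged from 9.35 to 25.5 CPM in vehicle and from 9.71 to 33.0 CPM under halofuginone, and the sign of the fat difference turned without halofuginone fat 1, at -0.62. Prodh overlaps Dgcr6 on the opposite strand without shared exonic bases.

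Pepd (ENSMUSG00000063931), prolidase, was at 27.7 to 33.2 CPM in vehicle liver and 25.1 to 27.7 CPM under halofuginone, a log2 difference of -0.15 (SE 0.0762, adjusted p = 0.156, edgeR), and again -0.15 without halofuginone liver 1 (adjusted p = 0.105). As deposited FPKM the liver groups were alike in mean, at 15.0 ± 1.42 and 15.1 ± 1.52 (SD, n = 5). In fat Pepd was at 72.2, 66.7 and 82.1 CPM in vehicle and at 39.6, 50.1 and 51.0 CPM under halofuginone. All 3 halofuginone fat libraries were below the vehicle libraries. The log2 difference in fat was -0.65 (SE 0.166, unadjusted p = 0.0059), with an adjusted p of 0.21 in edgeR, and the fat effect minus the liver effect was -0.51 (SE 0.151, adjusted p = 0.113). That contrast passed without halofuginone liver 1 (adjusted p = 0.036) and in DESeq2 (adjusted p = 0.0178).

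Counted over the members in fat, 0 of 7 passed at an adjusted p under 0.05 in edgeR, where 0% of 14030 genes passed. At an unadjusted p under 0.05, 1 member was higher (Aldh18a1) and 2 were lower (Aldh4a1 and Pepd), against 13.4% of all genes, 5.5% higher and 7.91% lower. DESeq2 called 2 members in fat, Aldh18a1 (adjusted p = 0.000177) and Pepd (adjusted p = 0.0138), and 5.16% of 14011 genes. Aldh18a1, Pycr1 and Pepd did not overlap between the fat groups, as was true of 20.6% of genes (10.2% higher, 10.4% lower). The members' median log2 difference in fat was 0.07, against 0.01 over all genes.

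**Figure D3:**
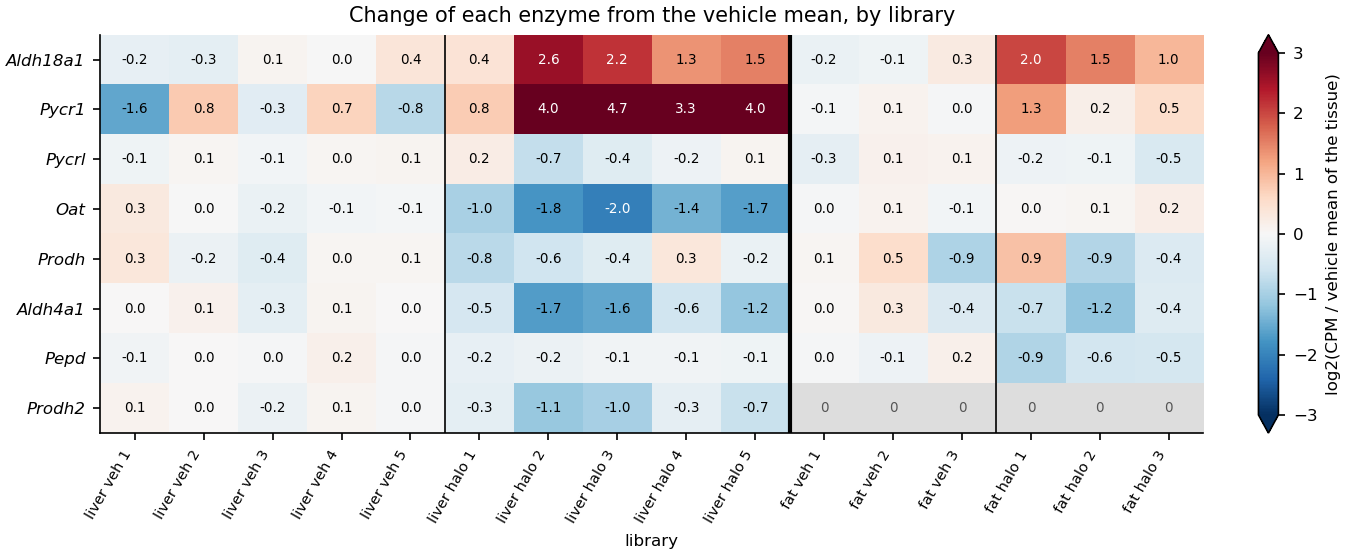
Log2 of the ratio of CPM in each library to the vehicle mean of that tissue, for each gene, as a colour scale that saturates at 3 in either direction, with the value printed in each cell and grey for genes with 0 counts. Halofuginone livers 2 to 5 are raised for Aldh18a1 and Pycr1 and lowered for Oat and Aldh4a1, and halofuginone liver 1 is nearer to the vehicle livers for these 4 genes.

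Other genes of the pathway were counted as a list of 36, of which 30 passed the filter in liver. There 4 were higher, 6 were lower and 20 were not called, beside the 23.2% called over all genes, and their median log2 fold change was -0.0046 against 0.02. The genes that use or supply glutamate were lower at 2 of 4 (edgeR): Glul, glutamine synthetase, fell by 1.15 on the log2 scale (SE 0.223, adjusted p = 0.00865), and Glud1, glutamate dehydrogenase, fell by 0.89 (SE 0.195, adjusted p = 0.0125). Glul was at 1011 to 1218 CPM in vehicle livers and at 840, 498, 331, 452 and 415 CPM in halofuginone livers 1 to 5. Hoga1, the aldolase near the end of hydroxyproline breakdown, was the 1 of 5 genes of that group that was called, at -1.01 (SE 0.213, adjusted p = 0.0109, edgeR). It was at 65.2 to 82.9 CPM in vehicle and 21.5 to 54.1 CPM under halofuginone. Without halofuginone liver 1 the log2 fold changes of Glul, Glud1 and Hoga1 were -1.43, -1.11 and -1.20.

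On the ornithine side 1 of 5 genes was higher and 1 lower in liver, beside 12.7% and 10.5% of all genes. Odc1, ornithine decarboxylase, rose by 1.04 (SE 0.242, adjusted p = 0.0153, edgeR), and Otc, which uses ornithine in the urea cycle, fell by 1.3 (SE 0.415, adjusted p = 0.0429). Both rested on halofuginone livers 2 to 5: Odc1 was at 90.5 CPM and Otc at 325 CPM in halofuginone liver 1, against 90.8 to 123 and 312 to 339 CPM in vehicle. Without halofuginone liver 1 the values were 1.22 and -1.97. The call of Otc was lost under 10 of 19 alternatives, with adjusted p up to 0.0987.

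Eprs, the gene whose protein halofuginone inhibits, was one of the 2 prolyl-tRNA synthetase genes and rose in liver by 1.24 (SE 0.253, adjusted p = 0.0102, edgeR). Halofuginone livers 1 to 5 were at 109, 292, 329, 299 and 321 CPM, against 97.4 to 134 CPM in vehicle, so that halofuginone liver 1 again lay inside the vehicle range, and the rise was 1.42 without it. Among 8 tested peptidases that cut at proline, Prep (0.40) and Prcp (0.31) were higher and Dpp4 (-0.55) and Xpnpep3 (-0.50) were lower on the log2 scale, beside 12.7% of all genes higher and 10.5% lower. Without halofuginone liver 1 these were 0.40, 0.26, -0.69 and -0.68, all 4 still called. The calls of Prcp, Xpnpep3 and Dpp4 were lost under 10, 14 and 2 of 19 alternatives. None of the 5 tested carriers that can move proline was called in liver by edgeR, and 1 was at an unadjusted p under 0.05, as were 39.1% of all genes tested.

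In fat 31 of the 36 were tested and 0 were called by edgeR, beside 0% of all genes. At an unadjusted p under 0.05, 5 were higher and 3 lower, beside 5.5% and 7.91% of all genes, and the median was -0.07 against 0.01 over all genes. DESeq2 called 4 of the list, beside 5.16% of all genes. The 5 higher were Eprs at 1.32 (unadjusted p = 0.00401), Odc1 at 0.74 (0.00412), Got1 at 1.04 (0.00529), Slc38a2 at 1.05 (0.0225) and Slc1a4 at 1.57 (0.0252). The last pair are amino acid carriers and Got1 is the cytosolic aspartate aminotransferase. The 3 lower were Fap, a fibroblast peptidase, at -1.17 (unadjusted p = 0.0044), Xpnpep2 at -1.52 (0.0326) and Glul at -0.61 (0.0496). In the contrast of tissues 32 of the 36 were tested and 0 were called by edgeR, 7 were at an unadjusted p under 0.05 (15.7% of all genes were), and DESeq2 called 1.

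**Figure D4:**
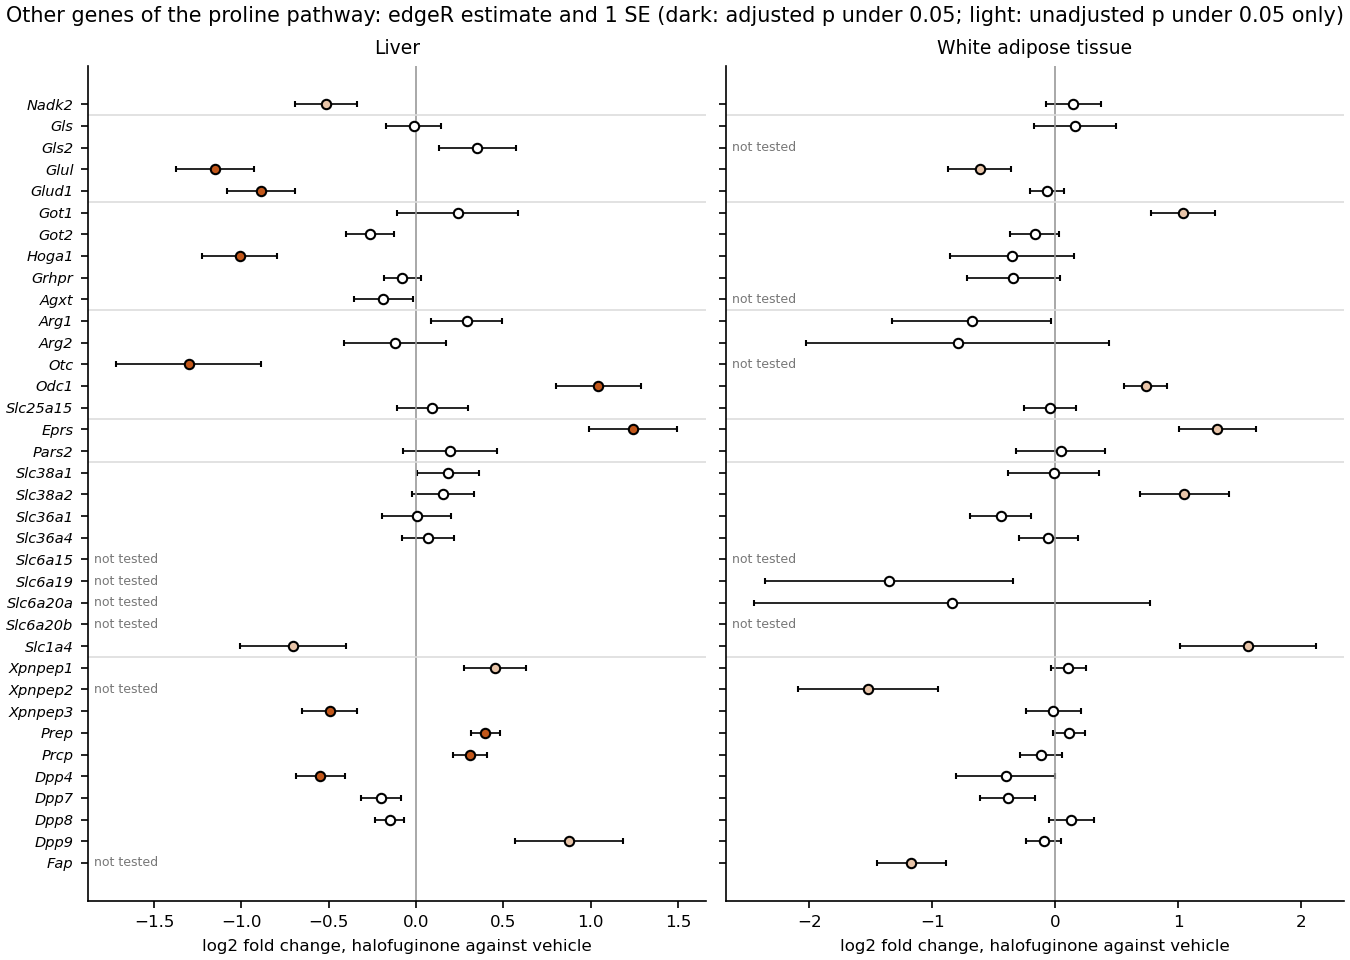
Log2 fold change under halofuginone of the 36 other genes of the pathway in liver and in fat, with bars of 1 SE, grouped by role between grey lines. Dark points have an adjusted p under 0.05 and light points an unadjusted p under 0.05 only (edgeR), and the 10 dark points are all in liver.

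Markers of cell types moved with some of these results, and their part was not tested. The 5 hepatocyte markers summed to 109745 to 125708 CPM in vehicle liver and to 40256 to 104709 CPM under halofuginone. Of these 1 of 5 was called lower, beside 10.5% of all genes, and their median log2 fold change was -0.86. At an unadjusted p under 0.05 (edgeR) 4 of the 5 were lower and 0 higher, beside 39.1% of all genes in either direction. Of 8 pericentral hepatocyte markers 4 were lower (Glul, Slc1a2, Lect2 and Rgn) and 0 higher, beside 10.5% and 12.7% of all genes. Not called were Cyp2e1 (-0.99), Cyp1a2 (-0.87), Tbx3 (-0.06) and Axin2 (0.38, log2 scale). The median of the 8 was -0.93, and 6 were lower at an unadjusted p under 0.05 (edgeR). Their sums were 13566 to 17107 CPM against 3339 to 14676, mostly from Cyp2e1 (11312 to 14627 CPM in vehicle). Of 8 periportal markers 0 were called by edgeR, beside 23.2% of all genes, and 0 were at an unadjusted p under 0.05, beside 39.1%. Their median was -0.07, with sums of 4130 to 5879 CPM against 2885 to 5982. These values stand beside the lower Oat, Aldh4a1 and Prodh2 in liver. The sum of the 7 fibroblast and stellate cell markers was 265 to 358 CPM in vehicle liver and 167 to 283 CPM under halofuginone. It was mostly Dcn (149 to 204 CPM in vehicle), which was not called (-0.30, adjusted p = 0.123, edgeR). Col1a1 (-1.77), Col3a1 (-1.71) and Col1a2 (-1.12) were called lower, 3 of 7, beside 10.5% of all genes. Rgs5 (-0.42), Lrat (-0.18) and Pdgfra (-0.05) were not called.

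In fat the 5 macrophage markers summed to 3994 to 8681 CPM in vehicle and 2696 to 2994 CPM under halofuginone. The 7 fibroblast and stellate cell markers summed to 4230 to 6065 CPM and 3017 to 3537 CPM, and the 7 adipocyte markers to 11547 to 22025 CPM and 20888 to 24480 CPM. The macrophage and fibroblast sums did not overlap between groups, where 20.6% of single genes did not overlap. Nor did the skeletal muscle sums (88.7 to 172 against 51.1 to 59.5 CPM) and exocrine pancreas sums (24.0 to 44.1 against 16.5 to 21.6 CPM). Each of these was mostly 1 gene, Acta1 for muscle (82.2 to 164 CPM in vehicle) and Cela1 for pancreas (23.8 to 43.9 CPM in vehicle). Acta1 was at -1.28 on the log2 scale, but Ckm, Myh4, Tnnt3 and Mylpf were at 0.28, -0.03, -0.23 and 0.32. Among the fibroblast markers Col1a1 (-1.27), Col1a2 (-0.88) and Col3a1 (-1.56) were lowest on the log2 scale. Rgs5 was at -0.47, Pdgfra at -0.24 and Dcn at 0.13. The macrophage sums were mostly Lyz2 (2588 to 6548 CPM in vehicle, log2 difference -1.005), with Csf1r at -1.80, Adgre1 at -1.53 and Cd68 at -0.76. No marker was called in fat by edgeR, where 0% of all genes were. The macrophage and fibroblast sums stand beside the values of Pepd, Aldh4a1 and Fap in fat. Epididymis markers reached 76.2 CPM in 1 vehicle fat library and 12.3 CPM at most under halofuginone.

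The genes with the most similar profiles over the 16 libraries were found by the root mean square difference of log2 CPM, after each gene was set to its vehicle mean in each tissue. For Aldh18a1 they were Taf15 (0.393), Eprs (0.427) and Arsg (0.433), where the median over 8139 candidate genes was 1.19. For Oat they were Hsd17b10 (0.202), S100a13 (0.28) and Aatk (0.285), with a median of 0.968 over 8138. Hsd17b10, a mitochondrial dehydrogenase, was at -1.51 in liver and -0.14 in fat on the log2 scale. For Aldh4a1 they were Bphl (0.165), Ggact (0.201) and Gm2a (0.202), with a median of 0.844. These distances are descriptions over libraries that share treatment and depth.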

How the data were processed

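RNA-seq libraries of 10 livers and 6 white adipose tissue samples were analysed from 1 deposited table per tissue. Per the file headers, counts and FPKM stand side by side for every library. Per the submitters' processing notes, fastp 0.18.0, Bowtie2 2.2.8, HISAT2, StringTie 1.3.1 and RSEM were used with build mm39, with no role or order given. The counts deposited by the authors are whole numbers, but in each library 1 to 31 genes with no count have a positive FPKM, and they may be rounded estimates. The FPKM deposited by the authors were used for levels between genes. The strand setting of the counting is not given in the sources used here.

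Each tissue was fitted on its whole table with edgeR 4.0.16 in R 4.3.3 (filterByExpr with a minimum count of 10, TMM factors, quasi-likelihood test, two-sided, Benjamini-Hochberg). The difference between tissues came from 1 fit of all 16 libraries, taken as independent. The SE is the size of the log2 fold change over the root of F, and CPM are counts over the TMM-scaled library size. No coordinates were converted between builds: promoters are RefSeq windows on GRCm38.p6, and gene overlaps came from GENCODE M21 on GRCm38. Symbols were found for 22267 of 22322 identifiers, and 0 columns were unmapped. A limit of 3 counts was 0.0983 to 0.15 CPM in liver and 0.139 to 0.18 CPM in fat. Libraries have no molecular identifiers, so intervals cover counting error only. No 2 libraries were alike within sampling noise.

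The members, lists and tests were chosen with earlier results of these data known. All 8 members are named. The list of 36 other pathway genes is counted, and a gene of it is named where called or where its unadjusted p was under 0.05 in fat. A further gene listed at the outset is not reported here. For each member called in liver, the 3 most similar genes were named among those of at least 5 CPM in both tissues. Prodh2, which had 0 counts in fat and did not pass the filter there, was left out. Alternatives were DESeq2 1.42.0, other scalings and filters, limma 3.58.1 on log2 FPKM with a pseudocount of 1 or 0.1, 1 fit of all groups, the replicate number as a block and leaving out each library. In the contrast the block was treatment with replicate number. The scripts were tested on simulated data.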

Additional observations from a re-analysis of the deposited data

Results flagged for a closer look

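A library was picked out when it lay apart from the other 4 of its group by more than 0.71 of the group's range. Each set examined was 1 gene in 1 group of 5 livers, and 4 of 42 sets passed this limit. Chance gives about 2.1, but the sets share the same vehicle and halofuginone livers and are not independent trials. The 4 therefore cannot be weighed against 2.1. Aldh4a1 was at 264 CPM in vehicle liver 3, with the next vehicle liver at 327 CPM. The other 3 were in halofuginone liver 1, which lay at vehicle levels for Otc (325 CPM, next 129), Odc1 (90.5 CPM, next 224) and Eprs (109 CPM, next 292).

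With libraries taken as independent, Oat differed between tissues in its response to halofuginone. The fat effect was 1.61 above the liver effect on the log2 scale (SE 0.288, adjusted p = 0.0207, edgeR). The call was lost with liver and fat libraries of the same treatment and number as a block (1.71, adjusted p = 0.281, edgeR). All 5 halofuginone livers lay below the vehicle range, and the fat groups overlapped.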

How the results depend on the processing

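Of 39 results on single genes, 35 kept their direction and 21 also their side of the threshold under every alternative run. Aldh18a1, Oat and Aldh4a1 kept their liver calls under all 19, with log2 fold changes of 0.77 to 1.96, -1.73 to -1.39 and -1.20 to -0.89. Genes called in liver numbered 2850, and 1275 (without halofuginone liver 3) to 5312 (without halofuginone liver 1) when a library was left out. Members called in liver numbered 4, and 3 to 5 when a library was left out, and other pathway genes 10, and 6 to 13 when a library was left out. With library size alone the share of liver calls that were higher was 76.9% against 54.7%, with limma on FPKM 71.4 and 71.1%, and the median of all genes 0.17 against 0.02. Members kept 1 higher and 3 lower call in these 3 fits. Pepd in liver turned to 0.0035 with library size alone, and to 0.0022 and 0.0023 with limma on FPKM plus 1 and plus 0.1.

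In fat 723 genes were called by DESeq2, 334 in 1 fit of all groups, 1 with no filter, and 0 to 1 when a library was left out. Members called in fat numbered 2 by DESeq2 and 2 in 1 fit of all groups (Aldh18a1 and Pepd in both), and other pathway genes 4 by DESeq2. In the contrast 141 genes were called, 687 by DESeq2 and 34 to 1053 when a library was left out. Members called there numbered 3 by DESeq2 and 1 to 3 when a library was left out, and other pathway genes 1 by DESeq2 and 0 to 2. When a library was left out, Prodh in fat ran from -0.62 to 0.42, and the contrast from -0.38 to 0.69 for Prodh and from -0.54 to 0.0658 for Aldh18a1. The cause of these differences was not tested.

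Same-numbered vehicle and halofuginone libraries of a tissue deviated together with r of -0.16 to 0.06 in liver and -0.57 to 0.11 in fat. In liver 1 of 5 and in fat 0 of 3 correlated best with their own number. These values give no sign that numbers pair vehicle with halofuginone libraries, but so few libraries cannot exclude it. Whether numbers pair liver with fat libraries was not tested. With the replicate number as a block within each tissue, 1901 genes were called in liver and 0 in fat, 4 members in liver and 0 in fat. In the contrast the block joined liver and fat libraries of the same treatment and number. That block left 2 genes and 0 members called, with Oat at 1.71 (adjusted p = 0.281, edgeR). Pycr1 in liver, at 1 to 5 counts in vehicle, is limited by depth.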
